A study of Homo sapiens with 2 samples.

Results

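DNA methylation is written, copied and removed by a small group of enzymes, and the question here was which of their promoters were occupied by MYBL2, a MYB-family regulator of proliferation, in Ewing sarcoma cells. The 10 genes were taken by name, for their known roles, and not by their values in the peak list, although earlier results of these data were known. They were DNMT1, UHRF1, UHRF2 and HELLS (maintenance of methylation), DNMT3A and DNMT3B (de novo methylation), and TET1, TET2, TET3 and TDG (demethylation). UHRF2, the paralogue of UHRF1, was placed with the maintenance genes, and its own part in maintenance was not examined here. DNMT3B is also on the study's list of genes that changed after MYBL2 knockdown, which is why the group was of interest. These 10 are among 38659 protein-coding and lncRNA genes of the annotation used. Chromatin immunoprecipitation followed by sequencing (ChIP-seq) had been performed on wild-type A673, an established Ewing sarcoma cell line, with 1 library from an anti-MYBL2 antibody and 1 input library of sheared chromatin without antibody. By the study's methods the antibody recognises MYBL2 when phosphorylated, and hence activated. Both libraries came from this 1 line with no treatment, and no replicate existed, so that no value below carries a replicate error and no difference between ChIP and input was tested beyond the authors' peak calling.

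The deposited list held 66954 peaks. For each peak the authors' fold enrichment is the linear ratio of ChIP fragments piled up at its highest point, the summit, to the local background expected from the input, with 1 added to both. The number of fragments (the pileup) and the background were recovered from the deposited values. The 95% Poisson intervals given for fold enrichment cover the counting error of the ChIP fragments only and take the background as exact. Over all peaks the median pileup was 20 fragments and the median fold enrichment 3.79. The background never fell below 3.45 fragments, the genome-wide floor set by the caller, which corresponds to about 56800000 ChIP reads. A promoter was the stretch of 1000 bp either side of any annotated transcription start site (TSS) of a gene, and a promoter peak was one with at least 1 base in it. Among genes that mark cell types, 4 of 6 on an Ewing sarcoma list (NKX2-2, NR0B1, CCND1 and PAX7, not STEAP1 or CD99) and 0 of 8 on a list for other cell types had a promoter peak. Among all protein-coding genes 59.4% had one, so 4 of 6 was near that share and 0 of 8 below it. A ChIP peak is not expression, so these counts do not check the label.

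In dividing cells, DNMT1 copies methylation onto the new DNA strand at each replication. UHRF1 recognises hemimethylated sites and brings DNMT1 to them, and UHRF2 is its paralogue. HELLS, a protein of a helicase family, opens nucleosomal DNA for the process. DNMT3A and DNMT3B place methylation on unmethylated sites, while the TET enzymes oxidise methylcytosine and TDG excises the oxidised base so that base excision repair can restore cytosine. MYBL2 itself joins the MuvB complex at promoters of late cell cycle genes, many of which carry the CHR element, and E2F factors act at promoters of genes used for DNA replication.

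The reference sequence (GRCh37) within 50 bp of the summit of the strongest promoter peak is shown for 5 of the genes. They are TET2, which has a MYB site at its summit, and the 4 maintenance genes. The maintenance genes include UHRF2 and DNMT1, which had the highest fold enrichments of the group. Each sequence runs 5′ to 3′ along the transcribed direction of its gene, and capitals mark matches to the motifs searched.

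UHRF2 (chr9:6413138-6413238, plus strand): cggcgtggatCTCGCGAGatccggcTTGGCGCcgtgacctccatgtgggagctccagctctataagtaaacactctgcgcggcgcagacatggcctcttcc
UHRF1 (chr19:4909434-4909534, plus strand): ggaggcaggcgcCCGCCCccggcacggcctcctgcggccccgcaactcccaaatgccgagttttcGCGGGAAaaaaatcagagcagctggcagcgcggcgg
DNMT1 (chr19:10305524-10305624, minus strand): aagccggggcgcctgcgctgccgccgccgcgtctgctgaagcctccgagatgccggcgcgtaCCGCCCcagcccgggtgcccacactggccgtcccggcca
HELLS (chr10:96305600-96305700, plus strand): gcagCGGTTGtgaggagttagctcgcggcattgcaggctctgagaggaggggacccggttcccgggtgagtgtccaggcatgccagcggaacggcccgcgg
TET2 (chr4:106068049-106068149, plus strand): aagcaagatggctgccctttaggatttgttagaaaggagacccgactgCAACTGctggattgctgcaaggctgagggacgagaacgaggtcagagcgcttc

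All 10 genes had a promoter peak, and 10 of 10 had one with a fold enrichment of at least 5. Across the annotation, 41.9% of all genes and 59.4% of protein-coding genes had a promoter peak, and 49.6% of protein-coding genes had one with a fold enrichment of at least 5. The promoters of the 10 genes were rich in CpG, with observed over expected CpG from 0.665 (TET1) to 0.962 (UHRF2) in the 500 bp either side of the canonical TSS. Of protein-coding genes at or above 0.6 on this measure, where all 10 lay, 79.2% had a promoter peak. The median fold enrichment of the strongest promoter peak was 10.1 over the 10 genes, 8.31 over all genes with a promoter peak and 8.67 over protein-coding genes with one, and 6 of the 10 genes lay above the last value. In 6 of the 10 strongest promoter peaks the background stood at its floor, and the highest was 4.66 fragments, so that the order of the genes mostly followed the ChIP fragments. The exceptions were TDG, with more fragments than DNMT1, and TET2, with more than TET3, DNMT3A or TET1.

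**Figure D1:**
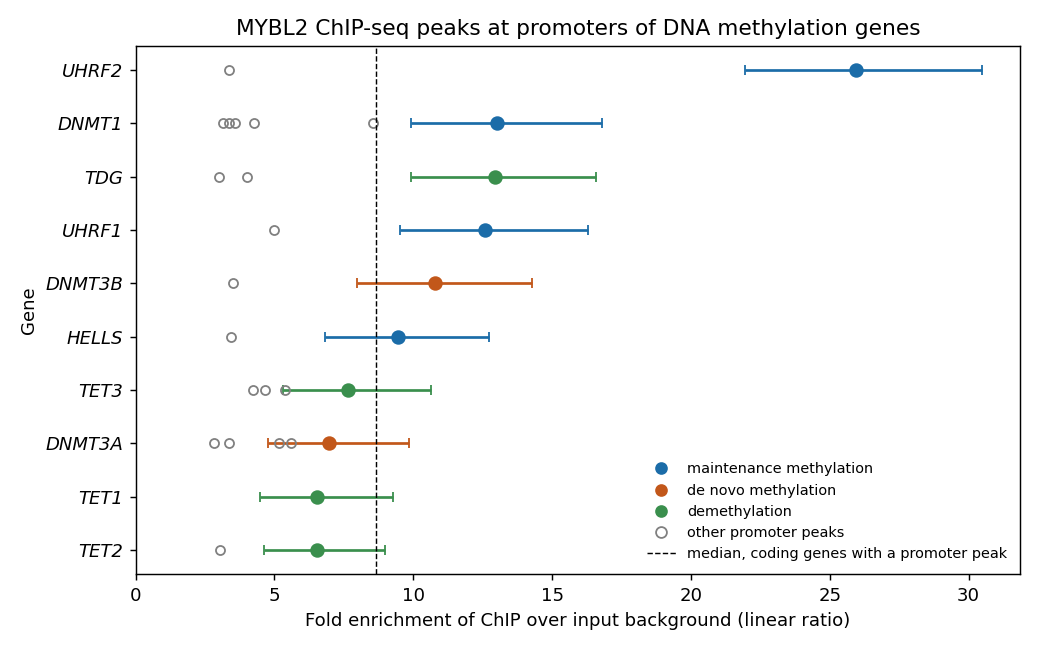
Fold enrichment (linear ratio of ChIP to the background, horizontal axis) of the strongest promoter peak of each gene (filled points, coloured by role) and of its other promoter peaks (open points). Bars are 95% Poisson intervals of the ChIP fragment count, with the background taken as exact. The background stood at its genome-wide floor in 6 of the 10 strongest peaks. UHRF2 at 26.0 stood apart from the other 9 genes, which lay between 6.53 and 13.03 with intervals that overlapped from one gene to the next; the dashed line is the median of protein-coding genes with a promoter peak, 8.67.

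The strongest peak of the group was that of UHRF2. At UHRF2 (ENSG00000147854, chromosome 9, 6413151 to 6507054) the peak at 6412636 to 6414101 rose to 146 fragments over a background of 4.66, a fold enrichment of 26.0 (interval 21.9 to 30.5). Its lower bound lay above the upper bound of every other member. Among protein-coding genes with a promoter peak, 97.2% had a weaker one. The summit lay 5 bp before a TSS. The printed window carried a core of the E2F site (TTGGCGC) before the summit, and further upstream the palindrome CTCGCGAG, which is part of the element bound by BANP, a factor that avoids methylated sites. This palindrome was searched for only after the window had been seen; it was present at 0.811% of all promoter peak summits.

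DNMT1 (ENSG00000130816, chromosome 19, 10244018 to 10341962, minus strand) was next, with 57 fragments over 3.45 at the peak spanning 10304658 to 10306110 (fold enrichment 13.03, interval 9.92 to 16.8). This peak sat on the canonical TSS, with its summit 55 bp inside in coding exon 1. A further DNMT1 peak at 10341391 to 10342097 (37 fragments, fold enrichment 8.54, interval 6.08 to 11.7) lay far upstream, at -36248 bp from the canonical TSS, beside the TSS of longer DNMT1 transcripts, and also fell in a promoter of S1PR2, a receptor gene. The 4 other DNMT1 promoter peaks were weaker (3.15 to 4.27) and lay in introns of the canonical transcript, near TSSs of transcripts annotated without a defined coding sequence. DNMT1 thus had the most promoter peaks of the group, 6, and also the most annotated TSSs, 43.

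UHRF1 (ENSG00000276043, chromosome 19, 4903092 to 4962165) reached 55 fragments over 3.45 at 4909171 to 4911090, a fold enrichment of 12.6 (interval 9.53 to 16.3). Its summit lay 26 bp before a TSS, and the window held an E2F match just after the summit, read as GCGGGAA on this strand. The adjoining peak at 4911223 to 4912754 was the only other one at a UHRF1 promoter (4.97). The outermost annotated TSS of UHRF1 had no peak within 1000 bp, so the gene counted as bound through its canonical promoter. HELLS (ENSG00000119969, chromosome 10, 96305086 to 96373662) was the weakest of the 4 maintenance genes, with 41 fragments over 3.45 at 96304770 to 96306134 (fold enrichment 9.44, interval 6.83 to 12.7). The HELLS summit, in the 5′ UTR in exon 1, was 1 of only 2 strongest summits in the group with a MYB site (read as CGGTTG on this strand).

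Of the de novo enzymes, DNMT3B had the stronger and the simpler pattern. DNMT3B (ENSG00000088305, chromosome 20, 31350191 to 31397165) had 47 fragments over 3.45 at 31350112 to 31350653, a fold enrichment of 10.8 (interval 7.98 to 14.3), with the summit in the 5′ UTR 81 bp after the canonical TSS. The same 47 fragments over the same background were found at the promoter of MYBL2 itself (chromosome 20, 42295424 to 42296854). The only other peak anywhere in the 47.0 kb of DNMT3B lay in intron 2 at 31368723 to 31368920, where 16 fragments over 3.82 gave a fold enrichment of 3.52, at the promoter of a shorter transcript.

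At DNMT3A (ENSG00000119772, chromosome 2, 25450724 to 25565459, minus strand) the fragments were spread over more than 1 promoter. The strongest promoter peak, at 25474093 to 25475100 with 30 fragments over 3.45 (fold enrichment 6.96, interval 4.77 to 9.85), was not at the canonical TSS but in intron 6, 516 bp after the TSS of a shorter coding transcript. A companion peak at 25475328 to 25475679 reached 5.17 on the other side of these internal TSSs. At the canonical TSS, the peak at 25564549 to 25564752 had 24 fragments over the same background (fold enrichment 5.62, interval 3.68 to 8.25), and a weaker peak of 3.37 lay upstream of it. The intervals of the strongest peaks at the internal and the canonical promoter of DNMT3A overlapped.

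Among the demethylation genes, TDG had the strongest peak. TDG (ENSG00000139372, chromosome 12, 104359600 to 104382652) had 60 fragments over 3.72 at 104358846 to 104360479, a fold enrichment of 12.9 (interval 9.92 to 16.6). The summit lay 219 bp before the nearest TDG TSS, and the peak was shared with the promoter of UQCC6, a gene of respiratory complex assembly, and of a lncRNA gene, so that it cannot be assigned to one of them. Its interval lay wholly above those of TET1 and TET2, though not above that of TET3.

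The 3 TET genes were at the low end. TET3 (ENSG00000187605, chromosome 2, 74212037 to 74335303) had 33 fragments over 3.45 at 74211576 to 74212303 (fold enrichment 7.64, interval 5.33 to 10.6), flanked by weaker peaks of 4.65 and 4.24 on either side of the TSS; all 3 also fell in the promoter of a lncRNA gene. Another TET3 promoter peak of 5.39 lay in intron 2, at the TSS of a further coding transcript. TET1 (ENSG00000138336, chromosome 10, 70320094 to 70454244) had 30 fragments over 3.73 at its single annotated TSS, at 70319841 to 70321032 (6.55, interval 4.49 to 9.26). TET2 (ENSG00000168769, chromosome 4, 106067032 to 106200973) had 36 fragments over 4.66 at 106067417 to 106068372 (6.53, interval 4.63 to 8.98). TET2 thus had more ChIP fragments than TET1 or TET3 but a higher background. The TET3 background was the floor, and the counting error of these small backgrounds was not estimated. The intervals of the 3 TET genes and DNMT3A overlapped. A MYB site (CAACTG) lay directly at the TET2 summit.

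Down the whole order, UHRF2 was the only gene whose interval did not overlap that of the next gene. DNMT1 and TDG lay wholly above DNMT3A, TET1 and TET2, and UHRF1 lay wholly above TET1 and TET2. All other pairs below UHRF2 had overlapping intervals. The lower bounds of DNMT1 and TDG (9.92 each) lay only just above the upper bound of DNMT3A (9.85). As the intervals leave out the error of the background, so narrow a separation is not firm. By role, the strongest promoter peaks ranged from 9.44 to 26.0 in the 4 genes grouped under maintenance. The 26.0 was that of UHRF2, and the next value in that group was 13.03, at DNMT1. The range was 6.96 to 10.8 in the 2 de novo genes and 6.53 to 12.9 in the 4 demethylation genes. The ranges of the roles overlapped and were not tested.

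**Figure D2:**
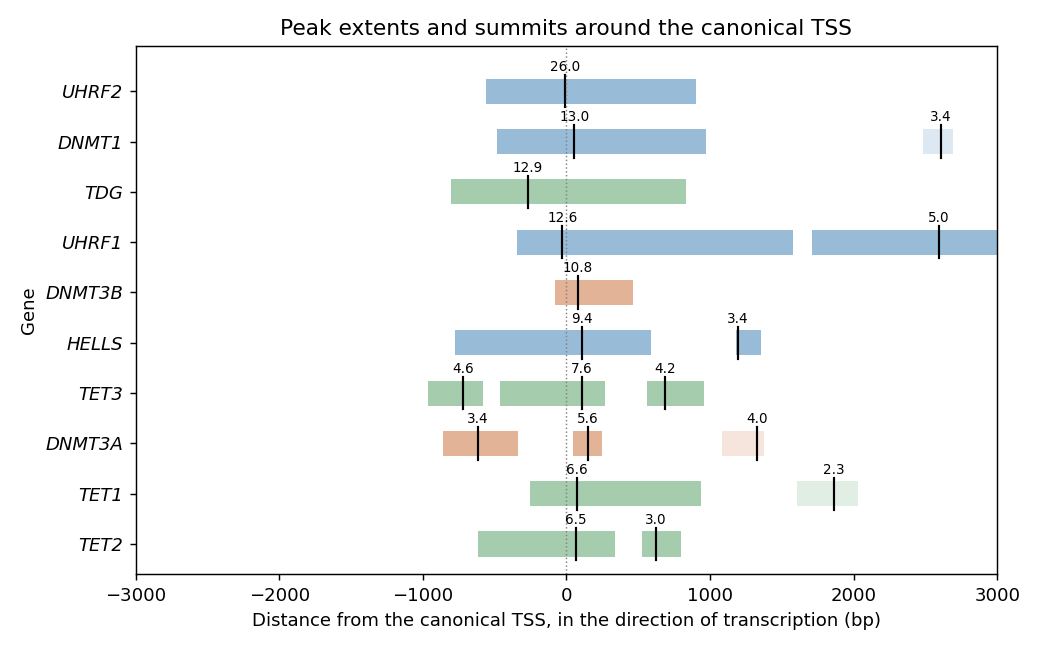
Extents of peaks (bars, coloured by role; pale bars are peaks outside any promoter window) and their summits (black lines, with the fold enrichment above each) relative to the canonical TSS of each gene, in bp along the direction of transcription. In 9 of the genes a summit lay within 150 bp of the canonical TSS, and the TDG summit lay at -269 bp.

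The motifs were searched on both strands within 50 bp of the summits of all 29 promoter peaks of the group, and of all 22936 promoter peaks in the list. The E2F site (TTCCCGC or TTGGCGC or TTCGCGC or TTGCCGC) was at 2 of the 10 strongest summits, those of UHRF1 and UHRF2, and at 5.28% of all promoter peak summits. The MYB site (CAACNG or TAACNG) was also at 2, those of HELLS and TET2, and at 5 of the 29, against 18.7% of all. The SP1 site (GGGCGG), a general element of CpG-rich promoters, was at 4 (DNMT1, DNMT3A, UHRF1 and TET3) and at 7 of the 29, against 18.6% of all.

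The CHR element (TTTGAA) was at none of the 10 strongest summits and at 3 of the 29, all of them weaker peaks, at UHRF2, TET3 and TDG with fold enrichments of 3.38 to 4.24. It was at 5.9% of all promoter peak summits. The CCAAT box (10.4% of all), the ETS core CCGGAAGT (1.77%) and the cyclic AMP element TGACGTCA (0.536%) matched none of the 29. With so few windows, these counts describe the 10 genes and give no comparison of motif frequency. A match does not show that a factor was bound there, and a window without one says only that these letters were missing within 50 bp of the summit.

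Beyond the promoters, the group held 99 further peaks inside its gene bodies, and they were distributed unevenly. UHRF1 held 35 of them. With 37 peaks touching its 59.1 kb, UHRF1 had 6.26 peaks per 10 kb, more than 98.9% of the 10951 protein-coding genes of at least 23 kb, whose median was 0.230. The density dropped to 0.5 peaks per 10 kb in the 100 kb before the gene and 1 peak per 10 kb in the 100 kb after it. The further UHRF1 peaks were weak, with fold enrichments from 2.13 to 5.07 around a median of 3.82. Of these 35, 21 stood at the floor of the background, and the background of the others reached up to 8.40 fragments. The cause of this run of peaks was not tested. The copy number of the locus was not examined.

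**Figure D3:**
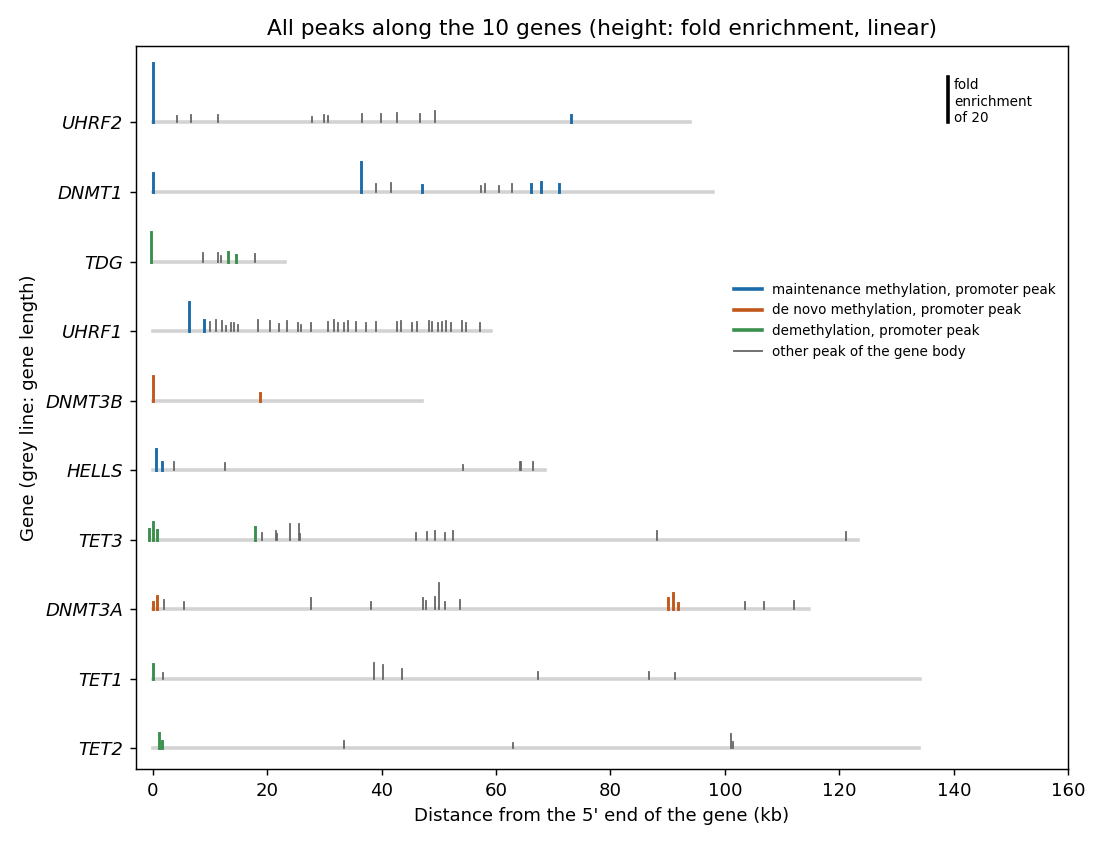
All peaks along the 10 genes, by distance of the summit from the 5′ end of the gene (kb, horizontal axis), with line height proportional to fold enrichment (linear; the scale bar is 20). Coloured lines are promoter peaks and grey lines other peaks; UHRF1 held a run of 35 low peaks after its 2 promoter peaks, whereas DNMT3B had 2 peaks in all.

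The other genes ranged from 0.426 peaks per 10 kb (DNMT3B) to 3.04 (TDG). The promoter peak dominated in 5 genes with peaks of both kinds, being 5.34 times as high in fold enrichment as the strongest other peak in UHRF2, 3.42 times in DNMT1, 3.41 times in TDG and 2.48 times in both UHRF1 and HELLS. In the TET genes and DNMT3A the corresponding ratios were 1.10 (TET3), 1.04 (TET2), 0.937 (TET1) and 0.596 (DNMT3A). In 2 of the 9 genes with both kinds, TET1 and DNMT3A, the strongest peak of the gene was thus not at a promoter. The same held for 18% of 4596 protein-coding genes at least as long as the shortest of the 10 (23 kb) with peaks of both kinds, so a count of 2 of 9 is close to the background.

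The DNMT3A peak in question spanned 25515191 to 25515911 in intron 3, 49295 bp into the gene from the canonical TSS. It had 51 fragments over 3.45, a fold enrichment of 11.7 (interval 8.76 to 15.3), an interval that overlapped that of the strongest DNMT3A promoter peak. In TET1, adjoining peaks in intron 2 at 70358692 to 70359822 (35 fragments over 4.15, fold enrichment 6.996, interval 4.93 to 9.65) and at 70359999 to 70360714 (6.09) lay about as high as the promoter peak. The strongest peaks of TET3 outside its promoters were in intron 3 (6.96 and 6.74), and that of TET2 was in intron 6 at 106167839 to 106168223 (27 fragments over 3.45, 6.29, interval 4.22 to 9.05). The summit windows of the DNMT3A and TET1 intronic peaks are printed because these were the strongest peaks of their genes.

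DNMT3A intron (chr2:25515449-25515549, minus strand): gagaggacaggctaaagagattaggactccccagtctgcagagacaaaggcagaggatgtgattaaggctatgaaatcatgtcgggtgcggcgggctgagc
TET1 intron (chr10:70358782-70358882, plus strand): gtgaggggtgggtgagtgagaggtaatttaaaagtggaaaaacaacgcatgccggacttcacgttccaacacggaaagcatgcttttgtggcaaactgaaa

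They held 3 and 4 CpG sites, against 5 at the strongest promoter summit of DNMT3A and 11 at that of TET1, and matched none of the motifs. The promoter window of TET2 also held 4, so a low count was not particular to the intronic windows.

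To set the 10 genes beside their pathway, 44 further genes of DNA methylation and demethylation were examined, and 40 had a promoter peak, beside 59.4% of all protein-coding genes and 79.2% of those with CpG-rich promoters. The CpG content of these 44 was not examined. The 4 without one were DNMT3L, a catalytically inactive cofactor of the de novo enzymes in germ cells, ZFP57, which guards imprinted loci, DPPA3, which restrains UHRF1 in the oocyte, and MAT1A, the liver form of the enzyme that makes the methyl donor. Their nearest peaks were 37416, 47364, 148846 and 69114 bp from a TSS, respectively.

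The strongest peaks of the list were at MAT2A (fold enrichment 30.3), which makes the methyl donor outside the liver and whose peak also fell in the promoter of the lncRNA gene PARTICL, at ZBTB4 (28.8), a reader of methylated DNA whose peak also fell in the promoter of POLR2A, and at GADD45B (28.3), a stress-response gene linked to repair-based demethylation. MAT2A exceeded every one of the 10 enzyme genes, though its interval overlapped that of UHRF2 (25.4 to 35.9 against 21.9 to 30.5). All 8 partners of maintenance methylation were bound, with a median of 10.8, and among them PCNA, the sliding clamp of replication, had 17.3 and the ligase LIG1, whose peak also fell in the promoter of ZSWIM9, had 18.2. All 7 genes grouped as methyl-CpG readers (median 6.74) and all 12 genes of base excision and its partners (median 9.21) had a promoter peak. So had 5 of 7 partners of de novo methylation (median 9.18) and 5 of 6 cofactors and regulators of the TET enzymes (median 9.88). In the methyl donor cycle 3 of 4 genes had one (median 19.7). Further strongest peaks of the list also fell in promoters of other genes, among them those of MBD4 (IFT122), APEX1 (OSGEP and PIP4P1), XRCC1 (PINLYP) and LIG3 (CCT6B). Such shared peaks cannot be assigned to one gene.

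**Figure D4:**
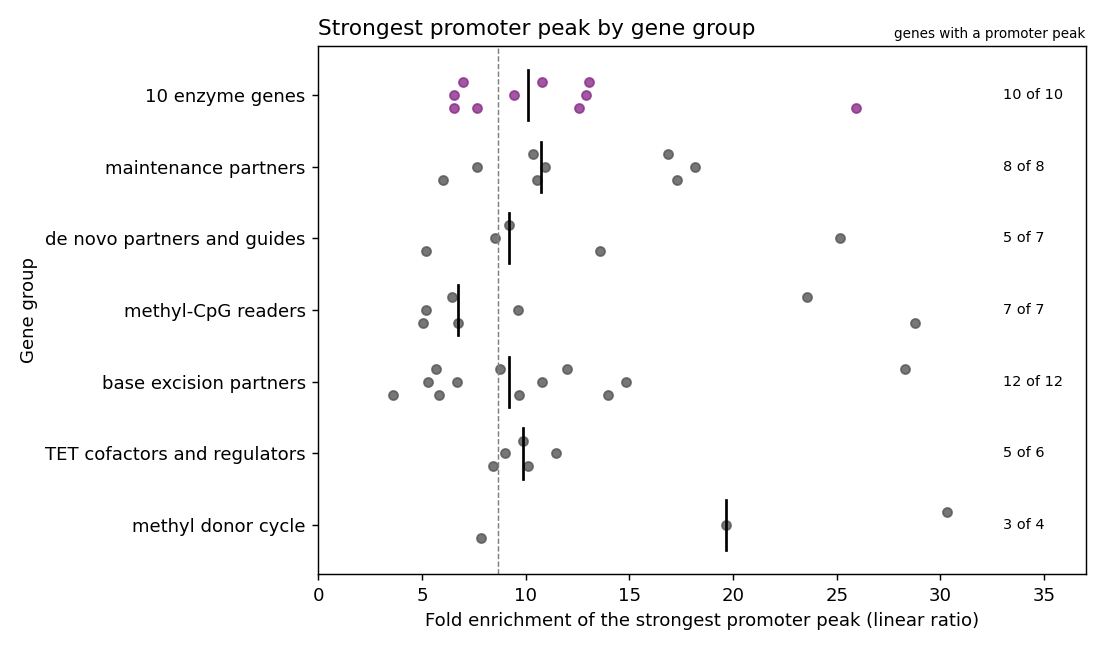
Fold enrichment of the strongest promoter peak (linear ratio, horizontal axis) of each gene with one, for the 10 enzyme genes and for 6 groups of other pathway genes (rows); short black lines are medians, the dashed line is the median of protein-coding genes with a promoter peak, and the counts on the right give genes with a promoter peak of all genes in the row. The 10 enzyme genes, with a median of 10.1, lay within the span of the other groups.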

How the data were processed

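MYBL2 ChIP-seq was available for 1 ChIP and 1 input library of A673 cells. The submitters' processing notes name Bowtie2, MACS2 2.0.10 and hg19. Single-end reads were aligned and, after a filter on mapping quality, the authors had MACS2 compare ChIP with input at a q threshold of 0.05. The deposited fold enrichment is a linear ratio, the deposited −log10 p and q are the caller's Poisson values, and the deposited score is 10 times the −log10 q without decimals. What the cleaning step in the authors' file removed is not given in the sources used here.

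Pileup and background were recovered as the whole-number solution of the deposited fold enrichment and p (largest misfit 3.49e-05 in −log10 p, next whole number at least 0.038), a step tested on simulated data. Estimated ChIP depth (56800000 reads) assumes a genome size setting of 2700000000 bp and a fragment length equal to the smallest peak width, 164 bp. Genes were the 38659 symbols of GENCODE 44 lifted to GRCh37, which has the hg19 coordinates (0 peaks lay beyond a chromosome end). Coordinates count from 1. Python 3.11.15, pysam 0.24.0 and scipy 1.17.1 were used. No test was made, as each group had 1 library. The members, the pathway list, the motifs and the alternatives were chosen with earlier results of these data known, and the CTCGCGAG search was added after the windows were seen. Named genes were all 10 members, MYBL2, and, of the pathway list, the genes without a promoter peak and the 3 with the highest fold enrichment. PCNA and LIG1, other pathway genes named for shared peaks and the gene body peaks named were added after their values were seen. Each member's strongest promoter peak was described. Weaker promoter peaks of UHRF2, HELLS, DNMT3A, TET2 and TDG, with fold enrichments of 2.82 to 4.02, were not described singly. The summit sequence of 1 member is not reported here.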

Additional observations from a re-analysis of the deposited data

How the results depend on the processing

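No paired analysis was possible because the series holds a single ChIP library. All 10 genes kept a promoter peak under every alternative except the outermost TSS alone, which left 9, without UHRF1. With that setting the median strongest fold enrichment over the 9 genes was 8.54, against 10.1 in the main analysis and under the other alternatives. No median over all genes is given here for that setting. That setting also gave DNMT1 a strongest peak of 8.54, at its far upstream TSS. Of 79 single-gene values, the other 78 stayed within their counting intervals. Of these, only DNMT3A with the outermost TSS alone (5.62) changed at all, since elsewhere the same strongest peak was kept. They are therefore no measure of spread. UHRF1 had no value with the outermost TSS alone and is not among the 79. The 29 promoter peaks became 19 with −log10 q of at least 5, 14 with fold enrichment of at least 5 and 12 with the outermost TSS alone, since weak peaks and internal TSSs are then left out. They became 22 with a window of 500 bp either side and 41 with 5000 bp upstream to 1000 bp downstream. Requiring the summit in the window gave 27, and TSSs of protein-coding transcripts alone gave 21. Between 34 and 40 of the 44 pathway genes kept a promoter peak. With windows of 100 bp either side, the number of the 29 peaks with a match rose from 5 to 8 for MYB, from 2 to 5 for E2F, from 0 to 3 for CCAAT and from 7 to 11 for SP1, and stayed at 3 for CHR and 0 for ETS and CRE. With fold enrichment of at least 5, where fewer peaks are left, MYB fell from 5 to 2 and CHR from 3 to 0. Without a replicate, the spread between ChIP experiments is unknown, and the intervals are too narrow to stand for it.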
